A study of Homo sapiens with 80 samples.

Results

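The genes described here encode the T cell receptor complex and the proteins that act directly behind it: the receptor beta constant chain TRBC1, the signal-transducing chains CD3D, CD3E, CD3G and CD247, the tyrosine kinases LCK and ZAP70, the adaptors LAT and LCP2, and the costimulatory receptor CD28. They were taken from the count table by their Ensembl identifiers. All 10 were found among its 60663 genes, and all 10 passed the filter on low counts in every comparison. The RNA came from Jurkat T cells, an immortalized human T lymphoblast line that grows in suspension and was used here as clone E6-1.

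In the first experiment, cells in pipettes were spun at 9 g. The groups hypg020s and hypg075s were spun for 20 and 75 s, and hypg3, hypg5, hypg7, hypg9, hypg15 and hypg60 for the number of minutes in their names. Cells held without centrifugation for 15 min (Ctrl) were the control for all times up to 15 min, and cells held for 60 min (Ctrl60) were the control for hypg60. The count columns of Ctrl60, unlike those of Ctrl and hypg60, carry HEPES in their names. If HEPES was in Ctrl60 alone, its part in the hypg60 changes cannot be told apart from that of 9 g. Cells spun for less than 15 min were first held without centrifugation, so that hold and spin together lasted 15 min. Each of these 10 groups had 6 libraries. In the second experiment, a tabletop centrifuge spun the cells at 300 g during 5 min, and they were lysed after a wait of 1 min (wait1min), 4 min (wait4min) or 15 min (wait15min), or were warmed to 42 °C for about 5 min (heat). Cells that were not spun (CtrlA) were their control, and each of these 5 groups had 4 libraries. CtrlA was lysed directly, without a hold that matches the time of the spin and the wait. A single clone was used throughout, and the cells of all groups carried the same genotype. Nothing states that the libraries of a group came from separate cultures, so the p-values measure the spread between these libraries, which may be technical. The 7 comparisons up to 15 min share the libraries of Ctrl, and the 4 comparisons of the second experiment share those of CtrlA.

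The T cell receptor is a pair of variable chains that bind a peptide on an MHC molecule and have almost no cytoplasmic part of their own. They depend on the CD3 chains and on CD247, also called zeta, whose cytoplasmic tails carry tyrosine motifs. LCK phosphorylates these motifs, ZAP70 docks on them and phosphorylates LAT, and LAT assembles LCP2 (SLP-76) with phospholipase C and other effectors. CD28 binds its ligands on antigen-presenting cells and adds a second signal. Jurkat cells have long served as a model of this pathway.

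The libraries held 22634465 to 41893490 assigned read pairs in the first experiment and 24417717 to 41220541 in the second. Library 75 of hypg15 was left out. Of 10934 genes with at least 50 counts in each of the other 79 libraries, it held 0 counts for 3563, TRBC1 and LCP2 among them. Library numbers run from 69 to 80 for hypg3 with hypg15 and up to 48 for the rest of the 9 g experiment, so that numbering and those times cannot be told apart. All 8 T lymphoblast markers, CD3D and CD3E among them, were detected in every library. Their summed level in counts per 1000000 (CPM) was 1694 to 1906 in Ctrl, 2081 to 2140 in CtrlA and 1270.0 to 1336 after 300 g and a wait of 1 min. Of the B cell markers, CD79A was present at 28.0 to 72.2 CPM, while MS4A1 was at 0 in 72 of 79 libraries. Of the natural killer cell markers, NCR1 and KLRF1 were at 0 in all 79 libraries and NCAM1 was present at 0.190 to 1.08 CPM. Of the epithelial markers, KRT19 was at 0 in all 79 libraries and KRT8 in 2. The fibroblast marker COL1A1 was present at 3.47 to 9.46 CPM, while COL1A2 was at 0 in 77 libraries. CD79A had 60.7 to 62.1 CPM in CtrlA and 30.7 to 32.1 CPM in wait1min, and its part in the results was not tested.

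Levels were first compared per length, as read pairs per kilobase of exon and 1000000 assigned pairs (RPKM, mean ± SD, n = 6) in Ctrl. TRBC1 was highest at 1035 ± 67.0 RPKM, followed by CD3D at 609 ± 40.0 and LCK at 381 ± 25.0. CD3E reached 214 ± 13.1 RPKM, ZAP70 124 ± 4.56, CD3G 66.4 ± 2.42 and CD247 48.1 ± 2.79. LCP2 at 13.3 ± 0.313 RPKM and CD28 at 12.9 ± 0.816 overlapped between libraries. LAT was lowest, at 1.27 ± 0.209 RPKM. Every neighbouring pair in this order other than LCP2 and CD28 was separated without overlap in Ctrl. In CtrlA (n = 4) the order of the 10 genes was the same, and LCP2 and CD28 did not overlap either. LAT rests on 86 to 326 read pairs per library and the other genes on at least 819. Of the 4431 exon bases of LAT, 2112 (47.7%) also belong to a read-through transcript on the same strand (ENSG00000261067), and read pairs there were counted for neither gene. The RPKM of LAT divides by all 4431 bases and so can understate its level. All changes of LAT given below rest on its exon bases that are not shared. TRBC1 has a near-identical copy, TRBC2, so that its count is uncertain where reads match both.

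At 300 g, the receptor chains other than CD3G fell to a little over 0.5 of their level in CtrlA at all 3 waiting times, and LCK fell slightly further. ZAP70 and LCP2 fell less, while LAT and CD28 rose. These values changed when the dependence on transcript GC content was removed, a step that also takes out any true change that goes with GC content. After it, the log2 fold changes after 1 min were smaller for TRBC1 (-0.29), CD247 (-0.35), LCK (-0.54) and CD3D (-0.53). CD3G then fell most (-1.21), and ZAP70 (0.25) and CD28 (-0.14) turned. The edgeR quasi-likelihood test called 9 of 10 genes after 1 min, 2 higher and 7 lower, in a comparison that called 81.5% of all genes tested (41.4% higher and 40.1% lower). The same 9 genes were called, in the same directions, after 4 min (82.2% of all genes, 41.7% higher and 40.6% lower) and 15 min (82.3%, 41.8% and 40.5%). For each of these 9 genes the ranges of the libraries did not overlap with CtrlA at any waiting time, as for 76.7%, 77.2% and 77.4% of all genes. The total of 9 is near the background, while more of the 10 genes were lower than of all genes. The median log2 fold change of the 10 genes was -0.54, -0.52 and -0.50 at the 3 times, against 0.01 over all genes tested at each.

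**Figure D1:**
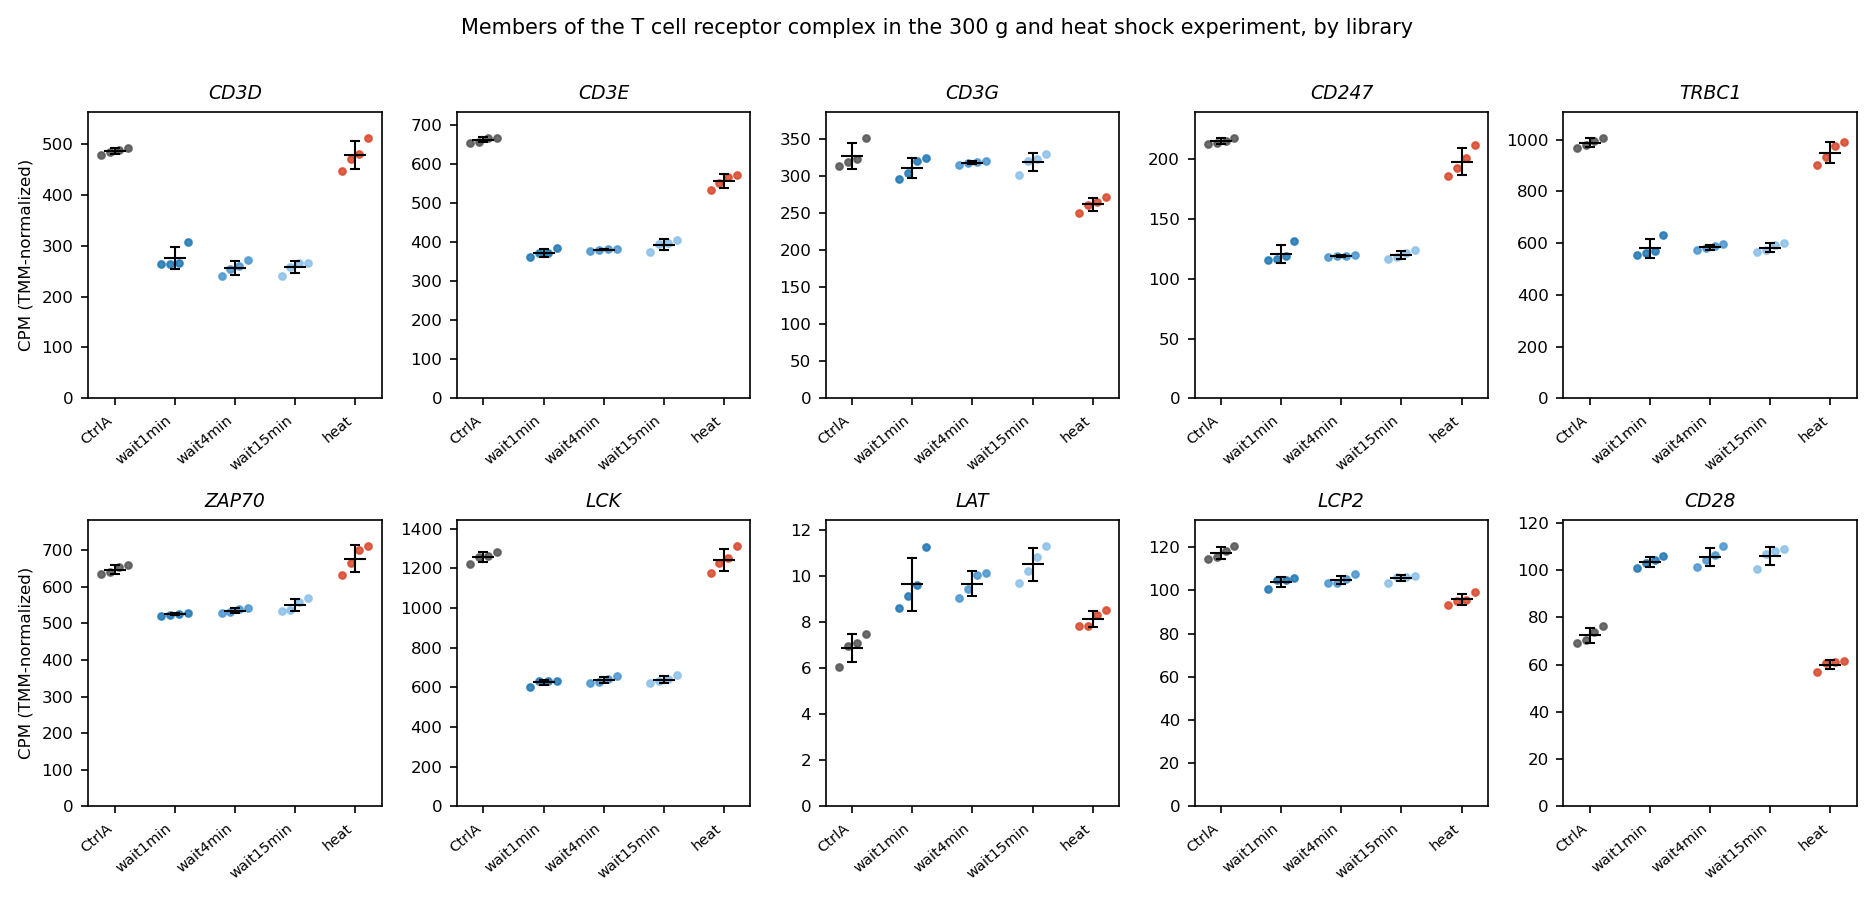
Normalized counts per 1000000 (CPM, y axis, from 0, each panel on its own scale) of the 10 genes in the 5 groups of the 300 g and heat shock experiment (x axis). Points are the 4 libraries of a group, and black marks are the mean and SD; for CD3D, CD3E, CD247, TRBC1 and LCK all 12 libraries spun at 300 g lie below all 4 of CtrlA, while for CD3G they overlap.

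TRBC1, the constant part of the beta chain (chromosome 7, 142791694 to 142793368, plus strand), had 966, 979.9, 996 and 1008 CPM in CtrlA. After a wait of 1 min it had 553, 563, 571 and 632 CPM. The groups did not overlap, and the log2 fold change was -0.78 ± 0.04 (SE, adjusted p = 1.92e-11), or 0.584 of the control level. After 4 and 15 min it was -0.76 at each time. In bulk RNA such as this, fewer cells of a type and less RNA per cell cannot be told apart.

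CD3D, the delta chain of the CD3 complex (chromosome 11, 118339075 to 118342705, minus strand), had 479, 484, 489 and 492 CPM in CtrlA. It had 264, 264, 265 and 308 CPM after 1 min, where the highest value, that of library 54, stood apart from the other 3. All 4 values were well below the control. The log2 fold change was -0.83 ± 0.05 (adjusted p = 3.12e-11) after 1 min, -0.93 ± 0.03 after 4 min and -0.91 ± 0.03 after 15 min. CD3E, the epsilon chain, which pairs with both delta and gamma (chromosome 11, 118304730 to 118316175, plus strand), had 654, 656, 666 and 667 CPM in CtrlA against 361, 371, 373 and 385 CPM after 1 min. Its groups were as clearly apart, with a log2 fold change of -0.84 ± 0.04 (adjusted p = 3.34e-13), -0.80 ± 0.02 and -0.75 ± 0.03 at the 3 times.

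CD3G, the gamma chain (chromosome 11, 118344344 to 118355161, plus strand), differed from its partners. It had 314, 319, 322 and 351 CPM in CtrlA and 295, 304, 320.1 and 324 CPM after 1 min. These ranges overlapped, and the log2 fold change of -0.08 ± 0.04 did not pass the test (adjusted p = 0.109, 95% interval -0.17 to 0.01). The values after 4 and 15 min were -0.04 ± 0.03 (interval -0.11 to 0.02) and -0.04 ± 0.04 (-0.12 to 0.04). The call depended on the settings: without library 54 the wait1min value was -0.10 (adjusted p = 0.0312), and without the filter on low counts the values after 1 and 4 min were -0.11 and -0.07, all past the threshold. With total counts as the scale they were 0.17 and 0.22. CD3D and CD3G lie head to head with their starts 1639 bases apart, and CD3E lies 22900 bases from the end of CD3D. Within a library, the ratio of CD3D to CD3G in CPM was 1.49 ± 0.0661 in CtrlA (1.40 to 1.56) and 0.885 ± 0.0604 after 1 min (0.815 to 0.962). It was 0.806 ± 0.0449 after 4 min and 0.810 ± 0.0140 after 15 min. These neighbouring genes thus changed unequally within each library. The order of their changes turned with GC content removed, where CD3G fell more (-1.21) than CD3D (-0.53) after 1 min.

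CD247, the zeta chain that carries most of the tyrosine motifs of the complex (chromosome 1, 167430640 to 167518610, minus strand), had 213, 213, 216 and 218 CPM in CtrlA. It had 116, 117, 119 and 132 CPM after 1 min, again without overlap. Its log2 fold change was -0.84 ± 0.04 (adjusted p = 4.83e-12) and stayed between -0.85 and -0.84 at the later times.

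LCK, the Src family kinase that starts the phosphorylation of the receptor (chromosome 1, 32251239 to 32286165, plus strand), showed the largest fall of the 10 genes at each waiting time before GC content was taken into account. It had 1223, 1256, 1263 and 1284 CPM in CtrlA and 603, 630.4, 632 and 634 CPM after 1 min. Every control library was far above every spun one, and the log2 fold change was -1.02 ± 0.04 (adjusted p = 4.24e-14). After 4 and 15 min it was -0.98 ± 0.03 at each.

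ZAP70, the kinase recruited to the phosphorylated chains (chromosome 2, 97713576 to 97739862, plus strand), had 635, 639.7, 655 and 659 CPM in CtrlA against 522, 524, 527 and 529 CPM after 1 min. The ranges did not overlap, but the fall was smaller than that of LCK: -0.31 ± 0.03 (adjusted p = 1.28e-07), then -0.28 ± 0.02 and -0.24 ± 0.03 at the later times. With total counts as the scale ZAP70 did not pass at 1 and 4 min (-0.06 and -0.02) and was at 0.02 after 15 min. With GC content removed it was higher than the control, at 0.25, 0.24 and 0.29. The ratio of LCK to ZAP70 in CPM was 1.87 to 1.99 in the libraries of CtrlA and 1.16 to 1.21 after 1 min.

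The promoter sequences of CD3D, CD247 and LCK, which fell at 300 g, and of CD28, which rose unless GC content was removed, are shown so that they can be compared. They are RefSeq sequences of build GRCh38.p14, from 250 bases before to 50 after a transcript start, and LCK has 2 such starts. Short motifs were searched on both strands. GGGCGG is read by SP and KLF factors, which act at many promoters. TGTGGT is the core that RUNX factors of the T cell lineage read. TATAAA is the box that positions the start of transcription at some promoters. AGATAA is a form of the site that GATA factors, such as GATA3 in T cells, read, and other forms were not searched. Capitals in the sequences mark matches of any of these letters.
CD3D, chr11:118342656-118342955, minus strand: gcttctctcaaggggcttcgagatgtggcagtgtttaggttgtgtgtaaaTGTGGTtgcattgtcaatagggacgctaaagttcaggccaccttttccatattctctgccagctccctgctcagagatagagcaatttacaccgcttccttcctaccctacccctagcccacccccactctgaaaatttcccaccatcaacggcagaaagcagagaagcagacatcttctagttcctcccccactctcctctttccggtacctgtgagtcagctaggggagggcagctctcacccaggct
CD247, chr1:167518480-167518779, minus strand: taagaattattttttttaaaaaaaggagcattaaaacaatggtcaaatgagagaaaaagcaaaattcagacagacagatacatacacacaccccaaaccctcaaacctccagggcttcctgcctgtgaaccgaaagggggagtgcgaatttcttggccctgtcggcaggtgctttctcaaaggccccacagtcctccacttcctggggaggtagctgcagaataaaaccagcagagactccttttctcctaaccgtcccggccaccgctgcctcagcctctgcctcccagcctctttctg
LCK, chr1:32251015-32251314, plus strand: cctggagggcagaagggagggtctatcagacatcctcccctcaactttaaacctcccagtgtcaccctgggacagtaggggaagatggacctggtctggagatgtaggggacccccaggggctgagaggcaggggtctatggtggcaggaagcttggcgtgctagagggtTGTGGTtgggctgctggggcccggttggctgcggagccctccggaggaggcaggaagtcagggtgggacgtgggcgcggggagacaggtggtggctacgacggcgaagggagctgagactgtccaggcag
LCK, chr1:32273871-32274170, plus strand: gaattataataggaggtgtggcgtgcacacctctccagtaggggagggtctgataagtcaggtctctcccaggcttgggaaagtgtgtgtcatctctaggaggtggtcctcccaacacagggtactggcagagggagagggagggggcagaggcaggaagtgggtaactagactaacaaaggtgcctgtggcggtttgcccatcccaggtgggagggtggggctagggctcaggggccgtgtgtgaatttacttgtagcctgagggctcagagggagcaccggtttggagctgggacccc
CD28, chr2:203706389-203706688, plus strand: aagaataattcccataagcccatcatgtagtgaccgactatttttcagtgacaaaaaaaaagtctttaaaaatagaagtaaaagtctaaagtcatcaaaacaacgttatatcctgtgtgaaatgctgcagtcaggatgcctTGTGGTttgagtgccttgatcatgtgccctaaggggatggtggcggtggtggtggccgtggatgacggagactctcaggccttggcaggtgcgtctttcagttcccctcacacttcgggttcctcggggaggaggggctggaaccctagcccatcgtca
The RUNX letters occurred in the windows of CD3D and CD28 and in that of the upstream start of LCK, and none of the motifs occurred in those of CD247 and of the downstream start of LCK. Windows of LAT, ZAP70 and LCP2 are not printed. A window of LAT had 3 matches of the SP and KLF letters and 1 of the RUNX letters, a window of ZAP70 had 4 of the SP and KLF letters, and that of LCP2 had none. No window was found for CD3E, CD3G and TRBC1. Of all 35116 promoters of the table, 13.1% hold the RUNX letters, 45.0% the SP and KLF letters, 11.5% the TATA box and 10.3% the GATA letters. The windows of CD247, CD28 and CD3D were 49.3%, 48.3% and 52.3% G and C and those of LCK 64.3% and 58.7%, against a median of 58.7% over all promoters.

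The adaptors moved in opposite directions. LAT, the membrane scaffold of the pathway (chromosome 16, 28984826 to 28990784, plus strand), had 6.05, 6.96, 7.10 and 7.48 CPM in CtrlA and 8.60, 9.15, 9.60 and 11.3 CPM after 1 min. It was higher in all 4 libraries than in any control, with a log2 fold change of 0.47 ± 0.09 (adjusted p = 0.000121), and of 0.49 ± 0.08 and 0.60 ± 0.08 at the later times. LCP2, which binds phosphorylated LAT through a partner adaptor (chromosome 5, 170246233 to 170297815, minus strand), had 114, 115, 118 and 121 CPM in CtrlA and 100.5, 105, 105 and 106 CPM after 1 min. Its ranges did not overlap either, and the fall of -0.18 ± 0.04 (adjusted p = 0.000159) corresponded to 0.881 of the control level. With total counts as the scale, which moved the median of all genes to 0.25, LCP2 turned to 0.06.

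CD28 (chromosome 2, 203706475 to 203738912, plus strand) rose at 300 g, a direction that turned with GC content removed (-0.14, -0.08 and -0.08 at the 3 times). It had 69.1, 70.4, 73.6 and 76.2 CPM in CtrlA and 101, 103, 104 and 106 CPM after 1 min, without overlap. The log2 fold change was 0.51 ± 0.04 (adjusted p = 1.56e-09), with 0.54 ± 0.04 and 0.55 ± 0.04 after 4 and 15 min. The ratio of CD28 to CD3E in CPM was 0.104 to 0.114 in the libraries of CtrlA and 0.275 to 0.281 after 1 min.

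No gene of the 10 differed between wait15min and wait1min by the edgeR test, in a comparison that called 0.149% of all genes. At an unadjusted p under 0.05 there were 2 (2192 of 17446 over all genes), and DESeq2 called 0 (0.281%). ZAP70 was higher in all 4 libraries of wait15min (534 to 569 CPM) than in any of wait1min (522 to 529 CPM), as 7.1% of all genes had ranges without overlap, with a log2 fold change of 0.07 ± 0.03 that did not pass (adjusted p = 0.356). The share of read pairs on mitochondrial genes, a sign of RNA composition, was 2.03 to 2.12% in CtrlA and 2.23 to 2.48% over the libraries spun at 300 g. Its part in these changes was not tested.

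**Figure D2:**
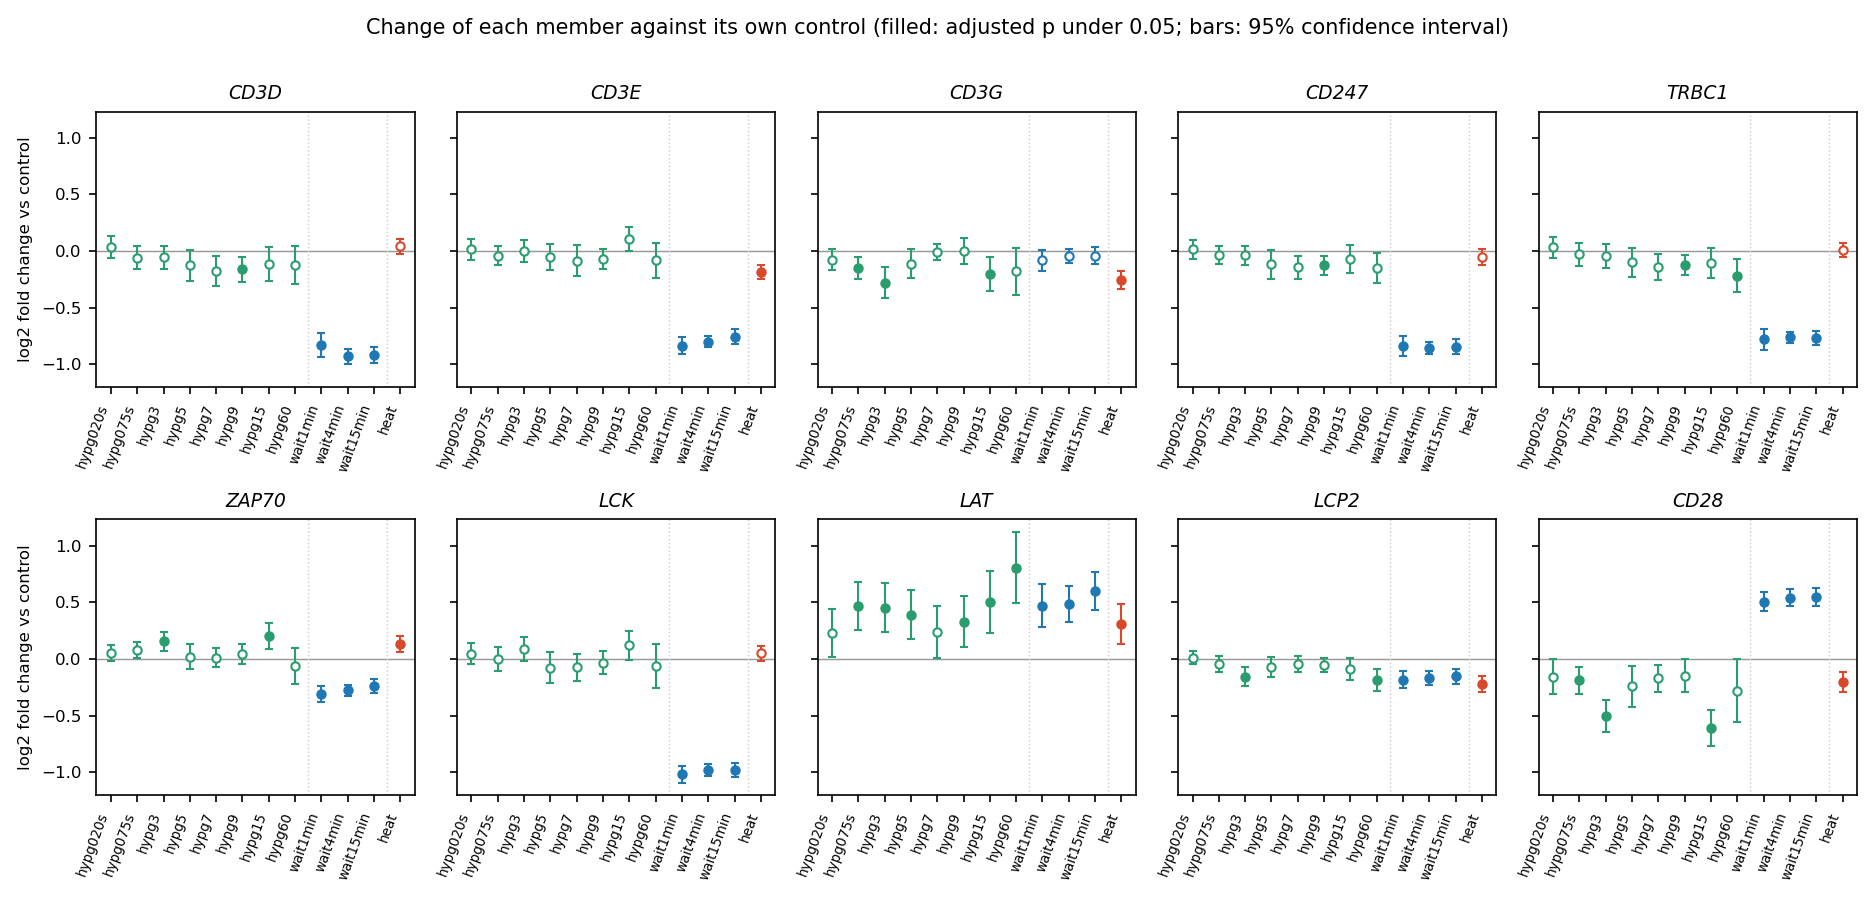
Log2 fold change against the own control (y axis) of each of the 10 genes in the 12 comparisons (x axis: 8 at 9 g in green, 3 at 300 g in blue, heat shock in red). Filled points passed an adjusted p of 0.05 and bars are 95% confidence intervals; at 9 g the points of CD3D, CD3E, CD247, TRBC1 and LCK lie within 0.22 of 0, while at 300 g they lie between -1.02 and -0.75.

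At 9 g, CD3E and LCK were called at no time, CD3G was lower at 3 times, LAT was higher at 6 of 8 times and CD28 was lower at 3, with its largest falls at 3 and 15 min. By the edgeR test, 0 of 10 genes were called after 20 s, where 15.2% of all genes were. Of the 10 genes, 3 were called after 75 s (31.3% of all genes), 5 after 3 min (41.3%) and 1 after 5 min (6.02%). After 7 min 0 were called (12.8%), after 9 min 4 (19.6%), after 15 min 4 (53.4%) and after 60 min 3 (30.1%). At 20 s 2 genes had an unadjusted p under 0.05 (5095 of 16137 over all genes) and DESeq2 called 0 (19.3%). At 7 min the same counts were 5 (4669 of 16438) and 2 (14.8%). Read against these backgrounds, the counts were not a result about the 10 genes. The mitochondrial share was 1.33 to 1.60% in Ctrl and 1.82 to 3.32% in hypg15, and it was also above all of Ctrl in every library of hypg075s, hypg3, hypg5, hypg7 and hypg9 (1.67 to 2.33%). It was 1.16 to 1.38% in Ctrl60 and 2.12 to 2.67% in hypg60. Its part was not tested. In a fit of all groups with 3 surrogate variables for variation that the groups do not account for, the calls at 9 g described here were lost, other than that of LCP2 in hypg60. The 2 controls at 1 g had 0 of the 10 genes called between them (edgeR called 0.0124% of all genes). At an unadjusted p under 0.05 there was 1 (578 of 16109 over all genes), and DESeq2 called 0 (0.0683%).

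**Figure D3:**
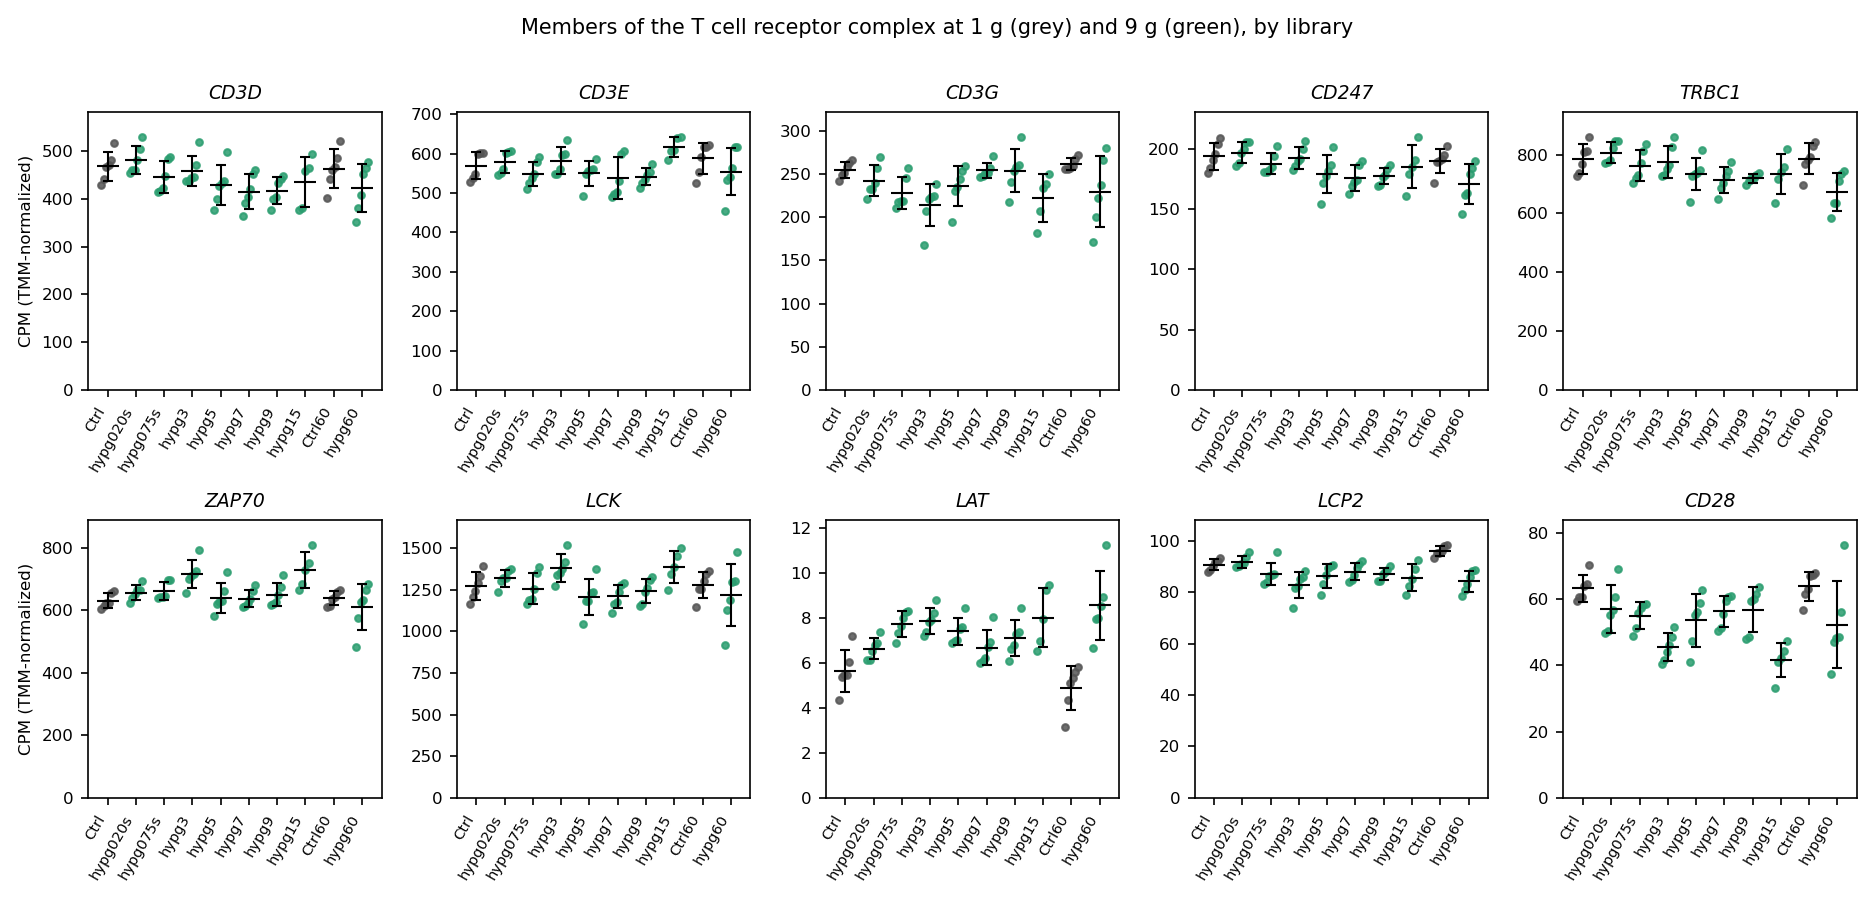
Normalized counts per 1000000 (CPM, y axis, from 0, each panel on its own scale) of the 10 genes in the 10 groups of the 9 g experiment (x axis; grey at 1 g, green at 9 g). Points are libraries (6 per group, 5 for hypg15) and black marks are the mean and SD; CD28 is lowest in hypg3 and hypg15, and LAT is above both controls on average at all times.

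CD3E and LCK were not called at any of the 8 times. The log2 fold changes of CD3E ranged from -0.08 to 0.11 and those of LCK from -0.07 to 0.12. TRBC1 had 726, 789 and 861 CPM (lowest, median and highest of 6) in Ctrl and 697, 719.9 and 736 CPM in hypg9. These ranges overlapped in their lower part, and the change of -0.12 ± 0.04 was called (adjusted p = 0.0433). It was also called in hypg60, at -0.22 ± 0.07 (adjusted p = 0.0252). CD3D and CD247 were called in hypg9 alone, at -0.16 ± 0.05 and -0.12 ± 0.04 (adjusted p = 0.0348 and 0.0394). These 3 calls in hypg9 were lost in a single model of all groups (adjusted p = 0.124, 0.103 and 0.0986 for TRBC1, CD3D and CD247). The largest of these falls left TRBC1 at 0.861 of its control.

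CD3G, which did not pass the test at 300 g, was called at 3 of the 8 times. It had 241, 255 and 267 CPM in Ctrl and 168, 222 and 238 CPM in hypg3, where all 6 libraries were below all 6 controls, as 21.1% of all genes had ranges without overlap. The log2 fold change was -0.28 ± 0.06 (adjusted p = 0.00279). In hypg075s it was -0.15 ± 0.04 (adjusted p = 0.0212) and in hypg15 -0.20 ± 0.07 (adjusted p = 0.023). The latter call was lost without library 3 of Ctrl (adjusted p = 0.0501) or library 76 of hypg15 (adjusted p = 0.0631). The call in hypg075s was lost in a single model of all groups (adjusted p = 0.141). With GC content removed these 3 values were above 0 (0.06, 0.09 and 0.24 after 75 s, 3 and 15 min).

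ZAP70 rose in hypg3 and hypg15, which did not hold with GC content removed (-0.00 and -0.03). It had 604, 623 and 662 CPM in Ctrl, and 664, 683, 729, 752 and 809 CPM in the 5 libraries of hypg15. The lowest of hypg15 lay just above the highest control (33% of all genes did not overlap there), and the log2 fold change was 0.20 ± 0.05 (adjusted p = 0.00552). In hypg3 it was 0.16 ± 0.04 (adjusted p = 0.00494), with overlapping ranges.

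LAT had 4.37, 5.45 and 7.18 CPM in Ctrl against 7.21, 7.86 and 8.80 CPM in hypg3, where the lowest library was just above the highest control. Its log2 fold change was positive at all 8 times and called at 6, with 0.47 ± 0.10 after 75 s (adjusted p = 0.00273) and 0.46 ± 0.10 after 3 min (adjusted p = 0.0024). The values after 20 s and 7 min, 0.23 and 0.24, did not pass. With 3 surrogate variables LAT was below 0 after 7, 9 and 15 min (-0.06, -0.07 and -0.17). After 60 min, LAT had 6.67, 8.25 and 11.2 CPM against 3.13, 5.22 and 5.80 CPM in Ctrl60, without overlap (13.3% of all genes). The change of 0.81 ± 0.15 (adjusted p = 0.000949), or 1.75 times, was the largest of any of the 10 genes at 9 g. The counts behind it, the lowest of all 10 genes, gave LAT the widest intervals.

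LCP2 was called in hypg3 (-0.15 ± 0.04, adjusted p = 0.00592) and in hypg60 (-0.18 ± 0.05, adjusted p = 0.0077). In hypg60 it had 78.5, 84.6 and 88.5 CPM against 93.2, 95.7 and 98.4 CPM in Ctrl60. All 6 spun libraries were below all 6 controls there, whereas the ranges overlapped in hypg3. The value in hypg3 turned to 0.06 with GC content removed and that in hypg60 did not pass (-0.11, adjusted p = 0.0993).

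CD28 had 59.3, 62.3 and 70.2 CPM in Ctrl. It had 40.4, 45.1 and 51.5 CPM in hypg3, and 33.3, 41.1, 42.1, 44.3 and 47.2 CPM in the 5 libraries of hypg15. Neither group overlapped with the control. The log2 fold changes were -0.50 ± 0.07 (adjusted p = 5.65e-05) and -0.61 ± 0.08 (adjusted p = 1.96e-05), so that 0.657 of the control level was left after 15 min. The fall after 15 min was -0.30 with GC content removed, and the value turned to 0.08 with 3 surrogate variables. In hypg075s the fall was smaller, -0.19 ± 0.06 (adjusted p = 0.02), again without overlap (14.9% of all genes), and it did not pass with GC content removed (-0.06), with total counts or in a single model of all groups. At the other 5 times the values were below 0, from -0.28 to -0.15, and did not pass.

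Times at 9 g were also compared directly. Between hypg15 and hypg3, the pair numbered 69 to 80, none of the 10 genes was called (2.54% of all genes were). None had an unadjusted p under 0.05, where 2688 of 15915 genes did. The share of all genes was 5.16% with GC content removed, 5.88% in a single model of all groups and 9.93% with 3 surrogate variables, where CD3G was called (0.21). Between hypg9 and hypg075s, 0 were called (5% of all genes) and 3 had an unadjusted p under 0.05 (3685 of 16319 over all genes). With 3 surrogate variables 1876 genes were called there in place of 816, with LCK at 0.09 (adjusted p = 0.0407). DESeq2 called 0 in either comparison (4.12% of all genes for hypg15 against hypg3 and 7.4% for hypg9 against hypg075s). A change of these genes with time at 9 g was therefore not detectable in these pairs by the main test.

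Since both last 5 min, the change at 300 g (wait1min against CtrlA) and that at 9 g (hypg5 against Ctrl) were set against each other in a single fit. The change differed for 7 of 10 genes, in a test that called 72.6% of all genes. The difference (300 g minus 9 g, log2) was -0.94 ± 0.09 for LCK, -0.78 ± 0.08 for CD3E and -0.72 ± 0.09 for CD247. It was -0.70 ± 0.10 for CD3D, -0.67 ± 0.09 for TRBC1 and -0.33 ± 0.08 for ZAP70. These 6 genes fell more at 300 g, whereas CD28 changed by 0.75 ± 0.11 more in the upward direction (adjusted p = 1.26e-06). The difference did not pass for CD3G (0.04, interval -0.14 to 0.21), LAT (0.08, -0.22 to 0.39) and LCP2 (-0.11, -0.23 to 0.01). With GC content removed the difference was -1.20 for CD3G, 0.28 for ZAP70, 0.03 for CD28, 0.52 for LAT and -0.55 for LCP2, each called other than that of CD28. The wait before lysis, the hold of the control, the vessel, the cell concentration and the 2 sets of libraries differ along with the force. Their parts cannot be told apart.

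Heat shock called 6 of 10 genes (20.8% of all genes). TRBC1, CD3D and LCK did not pass, at log2 fold changes of 0.01, 0.04 and 0.05 with intervals of -0.05 to 0.07, -0.02 to 0.11 and -0.01 to 0.12. CD3E had 532, 549, 566 and 572 CPM against 654 to 667 CPM in CtrlA (-0.18 ± 0.03, adjusted p = 0.000235). CD3G had 249.5, 261, 264 and 271 CPM against 314 to 351 CPM (-0.25 ± 0.04, adjusted p = 0.000189). Neither overlapped, so that within the CD3 complex heat lowered the epsilon and gamma transcripts while delta did not pass the test. LCP2 (93.3, 95.2, 95.6 and 99.4 CPM) and CD28 (57.0, 60.5, 61.2 and 61.3 CPM) were also below all controls, at -0.22 ± 0.03 (adjusted p = 0.000231) and -0.20 ± 0.04 (adjusted p = 0.00272). ZAP70 rose by 0.13 ± 0.03 (adjusted p = 0.00572) with overlapping ranges, and this call was lost in a single model of all groups (0.07, adjusted p = 0.121). LAT rose by 0.31 ± 0.08 (adjusted p = 0.0148), a call lost without library 50 of CtrlA (adjusted p = 0.0567) or library 65 of heat (adjusted p = 0.0556). CD247 was just below all controls but was not called (-0.05, adjusted p = 0.297), and 28.1% of all genes had ranges without overlap here. The mitochondrial share was 2.33 to 2.47% after heat.

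The change of a gene went with the GC content of its transcript over all genes tested, upward at 9 g and downward at 300 g. Spearman's rho across genes, which are not independent replicates, ranged at 9 g from 0.10 in hypg7 to 0.675 in hypg3, and was 0.67 in hypg15, -0.69 in wait1min and 0.16 after heat. Among the 10 genes, CD3G had the lowest GC content, 40.2%, at the 14.7th percentile of the genes tested, and CD28 (42.6%) and LCP2 (44.1%) were low too. CD3E (48.5%) and CD3D (51.8%) were near the middle, and LAT (54.5%), LCK (56.6%), TRBC1 (57.0%), CD247 (57.1%) and ZAP70 (62.0%) were above it. The genes that fell most at 300 g were thus of middle to high GC content, and CD3G and CD28 were of low GC content.

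**Figure D4:**
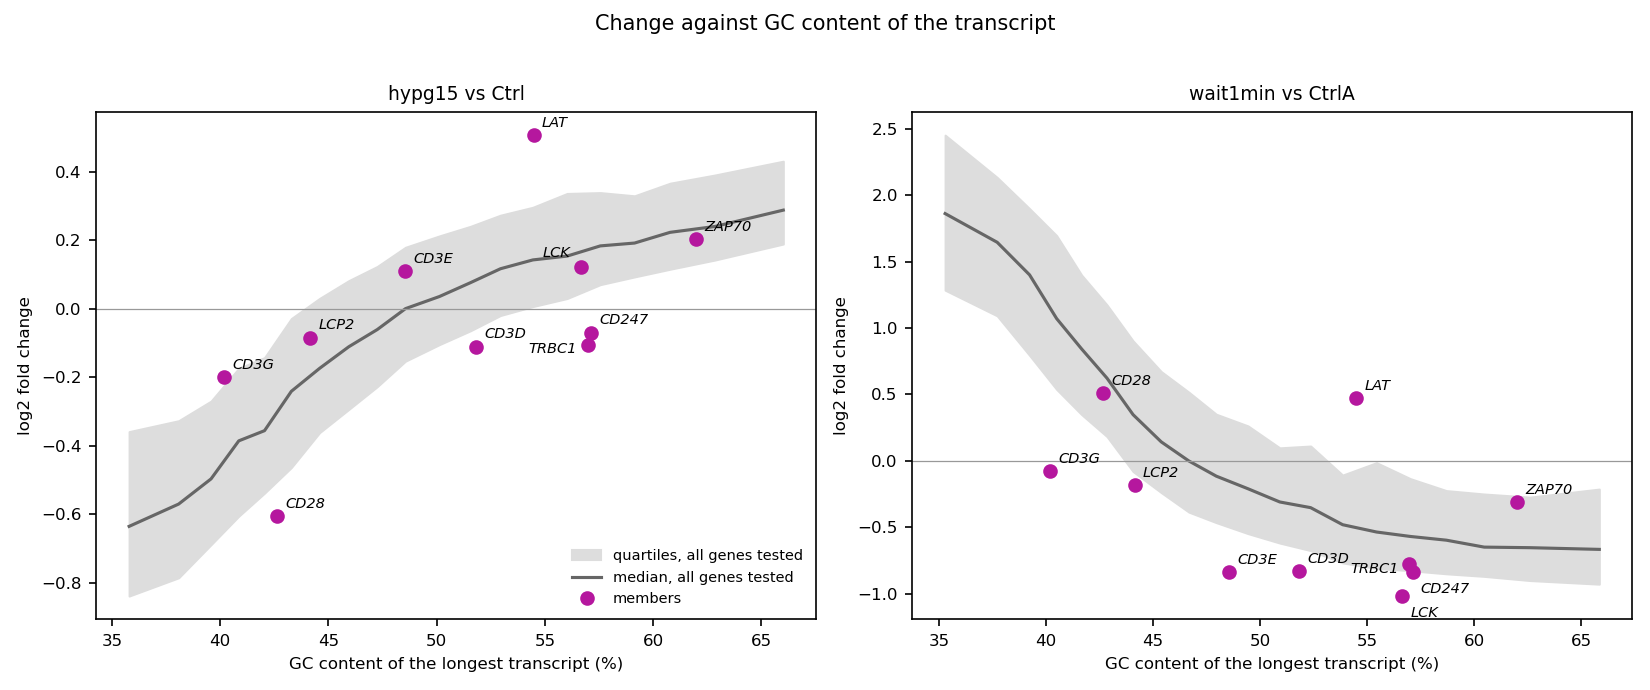
Log2 fold change (y axis) against the GC content of the longest transcript in percent (x axis), for hypg15 against Ctrl (left) and wait1min against CtrlA (right). Grey shows the median and the quartiles of all genes tested in bins of GC content and magenta points are the 10 genes; LAT lies above the band of quartiles in both panels, while CD3G lies near its upper edge on the left and below it on the right.

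When the smooth dependence on GC content was removed from every library, the changes at 300 g took another order. In wait1min, CD3G then had the largest fall of the 10 genes, -1.21, followed by CD3E at -0.73, LCP2 at -0.57, LCK at -0.54 and CD3D at -0.53. CD247 and TRBC1 fell by 0.35 and 0.29. ZAP70 turned from -0.31 to 0.25 and CD28 from 0.51 to -0.14, and LAT rose from 0.47 to 0.88. All 10 genes passed the test in this fit, which called 74.3% of all genes. The falls of CD3D, CD3E, CD247, TRBC1, LCK and LCP2 and the rise of LAT thus kept their direction at 300 g, whereas ZAP70 and CD28 changed direction. The sizes of most changes moved too: those of CD247, TRBC1, LCK and CD3D became smaller and those of CD3G, LCP2 and LAT larger.

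**Figure D5:**
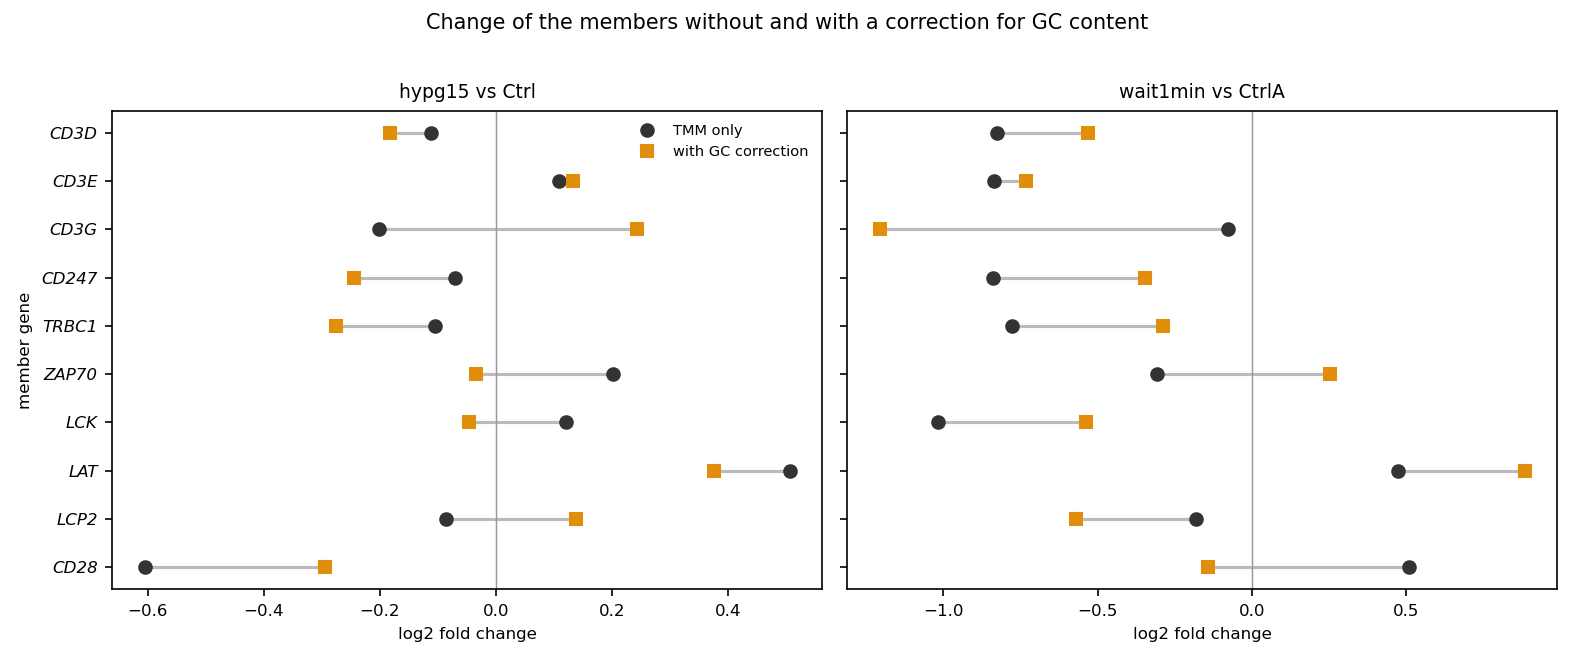
Log2 fold change (x axis) of the 10 genes (y axis) in hypg15 against Ctrl (left) and wait1min against CtrlA (right), with TMM normalization only (dark circles) and after the dependence on GC content was removed (orange squares). In wait1min CD3G moves from -0.08 to -1.21 and CD28 and ZAP70 cross 0; in hypg15 CD3G, ZAP70, LCK and LCP2 cross 0.

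At 9 g the same correction turned, among values called before or after it, CD3G in hypg075s (0.06), hypg3 (0.09) and hypg15 (0.24), ZAP70 in hypg3 (-0.00) and hypg15 (-0.03), and LCP2 in hypg3 (0.06) and hypg15 (0.14). It left CD28 lower, at -0.23 in hypg3 and -0.30 in hypg15, and it left, unlike the surrogate variables, the log2 fold change of LAT positive at all 8 times (0.17 to 0.73). After heat it changed no direction of a gene that had been called.

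Other genes of the pathway were followed in a list of 84, none of them among the 10: further receptor chains and coreceptors, kinases, negative regulators, adaptors, effectors and activation response genes. In wait1min, 28 of the 76 tested rose and 43 fell, where 41.4% of all genes tested rose and 40.1% fell. The counts of the groups below are to be read against these shares. Of the receptor chains and coreceptors, 3 rose and 10 fell of 15, with a median log2 fold change of -0.70. Among the members of that group, the alpha constant chain TRAC fell by 0.81 and TRBC2 by 0.71, close to TRBC1. The adhesion molecule CD2 fell by 0.22 and the coreceptor CD4 by 0.80. Of the tyrosine kinases 2 rose and 4 fell of 7. Among them CSK, which holds LCK inactive, fell by 0.91. The phosphatase PTPRC (CD45), which acts on LCK, rose by 2.21 and the phosphatase PTPN22 by 2.26. Of the 17 negative regulators 9 rose and 8 fell. SIT1, a transmembrane adaptor of this class, fell most among the list's genes at or above 10 CPM (-1.08 ± 0.05, adjusted p = 1.89e-12), and TRAT1, which stabilizes the receptor complex, rose most (2.38 ± 0.13, adjusted p = 6.58e-12). Of the 14 adaptors, 5 rose and 9 fell, among them GRB2 (-0.73) and THEMIS (1.81). Of the 17 effectors 7 rose and 9 fell, such as PLCG1 (-0.53) and ITPR2 (2.04), and of the 6 activation response genes tested 2 rose and 3 fell. In wait1min these named genes kept their direction and call with GC content removed, but most changes were smaller, such as 0.77 for PTPRC, 0.58 for PTPN22, 0.48 for TRAT1, 0.21 for THEMIS and -0.34 for CSK.

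Fewer of the 84 genes were called at 9 g. In hypg15, 14 of 74 rose and 30 fell, in hypg3 15 of 75 rose and 25 fell, and in hypg5 1 rose and 2 fell. Over all genes, 25.4% rose and 27.9% fell in hypg15, 16.9% and 24.4% in hypg3, and 4.33% and 1.69% in hypg5. THEMIS, an adaptor of thymocyte selection, was called lower at 7 of the 8 times, with -0.72 ± 0.11 after 20 s (adjusted p = 0.000868). The value after 20 s was -0.41 with GC content removed and -0.40 with surrogate variables, both called. CD2 was also called lower at 7 times, from -0.18 to -0.47, and the calcium channel ITPR3 higher at 7, from 0.12 to 0.27. PTPRC fell by 0.98 ± 0.18 in hypg15 (adjusted p = 0.000423), and it was -0.45 with GC content removed and did not pass with surrogate variables (-0.15). The surrogate variables ended all calls of CD2 and ITPR3 and those of THEMIS after 9 and 15 min. GC removal left ITPR3 called at 2 times only and ended the call of THEMIS after 15 min (-0.06). TRBC2 was lowest in hypg7 (-0.34 ± 0.07). Of the activation response genes, MYC was higher after 20 s (0.37 ± 0.03, adjusted p = 1.83e-06), and EGR1 was lower after 60 min (-0.83 ± 0.07, adjusted p = 1.91e-06). They were 0.32 and -0.91 with GC content removed and, with surrogate variables, 0.35 and -0.94, and all these were called. DOK2, an inhibitory adaptor, was highest after 60 min (0.39 ± 0.07) and NR4A1, also an activation response gene, after 15 min (0.36 ± 0.08), where it did not pass with GC content removed (0.15) or with surrogate variables (0.02). Heat raised 3 and lowered 12 of 74 (10.6% and 10.2% of all genes), with the ubiquitin ligase CBL lowest (-0.39 ± 0.04, adjusted p = 1.53e-05). In a single model of all groups, 7.85% of all genes were higher and 21.6% lower after heat.

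Likeness was taken over the 10 group means of the 9 g experiment, its 2 controls at 1 g included. CD3D followed CD247 (Pearson r = 0.94) and TRBC1 (r = 0.92), and CD247 followed TRBC1 (r = 0.97). Groups differed in depth and in how changes went with GC content, which all genes of a library share, and the part of these was not tested. CD3D and CD3G had r = 0.04. Among 8494 genes with at least 10 CPM, the gene most like CD28 was MAK16 (r = 0.99), that most like LCK was TKT (r = 0.99) and that most like CD3D was SNRPD2 (r = 0.98). CD3G was most like ZMPSTE24 (r = 0.98) and LAT, over 8495 genes, most like CACNA1H (r = 0.99). With so many genes searched over 10 points, values of this size describe these groups only.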

How the data were processed

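Jurkat RNA depleted of rRNA was sequenced as strand-specific read pairs in 80 libraries. The authors deposited raw counts of read pairs per gene, made with featureCounts on the reverse strand (2.0.3 in the file header, 2.0.1 in the submitters' processing notes) with the Ensembl 104 annotation of GRCh38. Their notes also name Trim Galore 0.6.5, STAR 2.7.3a, DESeq2 1.28.1 and build hg38. Per the file headers, read pairs with several matches or overlapping genes were not set to be counted. The deposited gene length (summed exon bases, not a score or other signal) was used for RPKM. Column names for Ctrl60 (Ctrl plus HEPES), wait1min (instant) and wait4min (1min) differ from the sample titles, which were followed. Whether HEPES was in Ctrl60 alone was not settled. 3 lines of the table that did not hold a full row of counts were left out. A marker of the B cell list is not reported here.

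Each treatment was tested against its own control with edgeR 4.0.16 (R 4.3.3): TMM factors, filterByExpr with a minimum count of 10, the quasi-likelihood F test, the libraries of both groups only, and Benjamini-Hochberg adjustment over all genes tested. Genes with an adjusted p under 0.05 were called. Standard errors follow from the F statistic, and CPM values are TMM-normalized. Alternatives were no filter, RLE factors, total counts, DESeq2 1.42.0, all groups in a single model, 3 surrogate variables (sva 3.50.0), removal of a lowess curve (span 0.3) of log2 counts on transcript GC content (GENCODE 29), library 75 included, and each library left out in turn where a group had 5 libraries or fewer. The test was checked on simulated data. Over 175 pairs of libraries within groups, no pair agreed within sampling noise (chi-square per gene at least 1.40). The 10 genes and the pathway and marker lists were chosen with earlier results of these data known. All 10 genes are named, and pathway genes could be named by rule, of which some are given as examples: the highest and lowest called gene at or above 10 CPM in a comparison, or a gene called the same way at 7 or more times at 9 g or at all 3 waiting times. The gene most like each of the 10 is the highest Pearson r of group mean log2 CPM over the 10 groups of the 9 g experiment.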

Additional observations from a re-analysis of the deposited data

Results flagged for a closer look

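A single library stood apart from the rest of its group in 4 of 150 combinations of gene and group tested by Dixon's criterion, which chance alone flags about 1 time in 20. CD3D in library 54 of wait1min was highest at 308 CPM, with the next at 265 CPM, and still far below CtrlA. LCK in library 55 of wait1min was lowest at 603 CPM, with the next at 630.4 CPM. LCP2 in library 20 of hypg075s was highest at 95.5 CPM (next 87.1 CPM), and LCP2 in library 64 of wait15min was lowest at 104 CPM (next 106 CPM).

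The change at 300 g differed from that at 9 g, both of 5 min, for 7 of the 10 genes by the test of the difference. The difference was -0.70 for CD3D, -0.78 for CD3E, -0.72 for CD247, -0.67 for TRBC1, -0.33 for ZAP70, -0.94 for LCK and 0.75 for CD28. The call for CD28 was lost when the dependence on GC content was removed (0.03), and that for ZAP70 turned to 0.28.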

How the results depend on the processing

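No paired analysis was possible because every library carries its own number and no 2 groups share one. With RLE factors, DESeq2 or no filter no call of a gene was reversed or lost, and without the filter CD3G was also called in wait1min and wait4min. The number of the 10 genes called moved by more than 1.5 times as follows, the cause not being tested. With GC content removed it was 1 in hypg020s, 5 in hypg5, 4 in hypg7, 8 in hypg15 and 6 in hypg60. With 3 surrogate variables it was 0 in hypg075s, hypg3, hypg5, hypg9 and hypg15 and 1 in hypg60, in hypg15 against hypg3 and in hypg9 against hypg075s. In a single model of all groups it was 1 in hypg075s, 1 in hypg9 and 5 in hypg60. In hypg7 it was 1 with RLE factors, 3 with total counts and 2 with DESeq2.

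Of the values called under either setting, directions turned as follows. With GC content removed CD3G became 0.0574 in hypg075s, 0.0883 in hypg3, 0.24 in hypg15 and -1.20 in the difference between 300 g and 9 g. ZAP70 became -0.0021 in hypg3, -0.0339 in hypg15, 0.25, 0.24 and 0.29 in wait1min, wait4min and wait15min and 0.28 in that difference. LCP2 became 0.056 in hypg3 and 0.14 in hypg15, and CD28 -0.14, -0.0809 and -0.0754 at the 3 waiting times. With total counts, which moved the median of all genes at 300 g to 0.25, 0.27 and 0.27, CD3G became 0.17, 0.22 and 0.22, LCP2 0.063, 0.094 and 0.11, and ZAP70 0.0243 in wait15min. With surrogate variables CD3G became 0.04 in hypg075s, 0.0889 in hypg3 and 0.30 in hypg15, CD28 0.073 in hypg075s and 0.0777 in hypg15, ZAP70 -0.0164 and LAT -0.17 in hypg15, LAT -0.0671 and TRBC1 0.0253 in hypg9, and LCK 0.0921 in hypg9 against hypg075s.

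Leaving out a library at a time gave 3 to 6 genes called in hypg15, 9 to 10 in wait1min, 9 in wait4min and wait15min, 5 to 6 in heat, 7 to 8 in the difference between 300 g and 9 g, and 0 in hypg15 against hypg3 and wait15min against wait1min. Without library 77 of hypg15, LCK (0.15) and LCP2 (-0.12) were also called there, as was CD3E (0.15) without library 4 of Ctrl, and LCP2 (-0.13) in the difference without library 30 of hypg5. With library 75 included 3 genes were called in hypg15 (32.4% of all genes).

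Over all genes, surrogate variables lowered the calls from 8477 to 74 in hypg15, 6685 to 1002 in hypg3, 5086 to 1415 in hypg075s, 4916 to 1535 in hypg60, 3215 to 158 in hypg9, 2108 to 489 in hypg7 and 2458 to 1553 in hypg020s. GC removal moved them from 6685 to 4208 in hypg3, 981 to 2030 in hypg5 and 2108 to 3345 in hypg7, and including library 75 to 5106 in hypg15. A single model of all groups moved the split after heat to 1461 higher and 4027 lower, and the calls from 2458 to 1327 in hypg020s, 816 to 542 in hypg9 against hypg075s (1876 with surrogate variables), 26 to 63 in wait15min against wait1min (278 without the filter, 49 with DESeq2) and 2 to 5 in Ctrl60 against Ctrl (11 with DESeq2). Total counts moved the split in wait1min from 7104 higher and 6882 lower to 8527 and 5218. LAT had the lowest counts of the 10 genes, which limits its precision.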
